A study of Caenorhabditis elegans with 8 samples.

Results

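Transcript levels of 10 lipase genes, 7 of the lysosomal lipl family and 3 of fat droplet lipolysis, were measured by RNA sequencing in larvae of Caenorhabditis elegans held in starvation arrest. The 10 genes were taken by name (lipl-1, lipl-2, lipl-3, lipl-4, lipl-5, lipl-7, lipl-8, atgl-1, hosl-1 and lid-1) from the 46433 rows of a table of raw counts per gene, and each had a row of its own. The mutant strain HBR227, which carries aptf-1(gk794), and the wild-type strain N2 were each represented by 4 libraries, called biological replicates A to D. Both strains were treated alike: eggs freed with hypochlorite were left in M9 buffer, where larvae hatch without food and stop at the first stage (L1), and whole animals were collected after 48 hours with no further treatment. The gene aptf-1 encodes an AP-2 transcription factor that the sleep-active neuron RIS requires, and its mutants lack sleep behaviour. The labels do not say whether gk794 was outcrossed or which libraries had a culture of their own, and the spread behind each p-value is that among the libraries as deposited.

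A starved larva lives on stored triglyceride. Cytosolic lipases release fatty acids at the surface of the fat droplet, where ATGL-1, the homologue of mammalian adipose triglyceride lipase, starts the breakdown, LID-1 acts as its co-activator and HOSL-1 is the homologue of hormone-sensitive lipase. The LIPL proteins are related to mammalian lysosomal acid lipase and break down lipid delivered to the lysosome. In fasted worms the transcription factor HLH-30, homologue of mammalian TFEB, activates lipl genes, while MXL-3 represses several of them in fed worms. LIPL-4 is known for a signalling role, in which its lipid product is carried to the nucleus by LBP-8 and acts through NHR-49 and NHR-80 in the intestine, the main fat store of the worm.

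Total counts ran from 48.5 to 65 M (mega-counts) in HBR227 and from 43.6 to 56.4 M in N2. The targeted gene aptf-1 had 33 to 69 counts in HBR227, against 161 to 234 in N2, and did not overlap between the strains. The library HBR227 A stood away from the other 7 on the first principal component of log2 CPM (counts scaled to a common library total, here by TMM), at -74.3 against -9.86 to 28.3, so results are given with and without it. Every listed marker of intestine, epidermis, body wall muscle, neurons, primordial germ cells and embryo had counts in all 8 libraries. Summed germ cell markers stood at 282 CPM in HBR227 A, at 148 to 157 in HBR227 B, C and D and at 132 to 153 in N2, and summed muscle markers at 8720, 11800 to 12500 and 11200 to 12300 CPM in the same order. Summed CPM of the 14 intestine markers was 4490 to 5020 in HBR227 and 4980 to 5930 in N2, of which the protease gene asp-1 gave 2060 to 2260 in HBR227 and 2840 to 3420 in N2. The other 13 summed to 2250 to 2760 CPM in HBR227 and 2140 to 2500 CPM in N2. Summed embryo markers did not overlap between the strains, at 565 CPM in HBR227 A, 463 to 476 in HBR227 B, C and D and 388 to 420 in N2. Of this sum skn-1 alone gave 319 to 387 CPM in HBR227 and 315 to 341 CPM in N2, which overlap. The means of end-1, hlh-27, ceh-51 and tbx-37 were lower in HBR227, and those of the other embryo markers were higher. Chosen after its values were seen, mex-5 stood at 136 CPM in HBR227 A, 41.3 to 44.9 in HBR227 B, C and D and 30.8 to 45.3 in N2. In mex-1 and pie-1 HBR227 A was likewise the highest library, and HBR227 B, C and D overlapped N2. In skn-1 and med-2 HBR227 B, C and D lay above every N2 library. Of the 10 embryo markers 1 was called, higher, where 11.2% of all genes were higher. In whole animals, fewer cells of a type and less RNA per cell cannot be told apart, and the part of these marker levels in the results was not tested.

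Of the 10 genes, 8 had enough counts to be tested, with at least 23 counts in every library of each. In edgeR's quasi-likelihood test, adjusted by the Benjamini-Hochberg method over 17522 genes and called at an adjusted p under 0.05, lipl-3, lipl-5 and atgl-1 rose in HBR227, lid-1 fell, and lipl-1, lipl-2, lipl-7 and hosl-1 were not called. That made 4 of 8, where 21.5% of all genes tested were called, 11.2% higher and 10.4% lower in HBR227. The median log2 fold change (HBR227 minus N2) of the 8 was 0.22, beside -0.0032 for all genes tested. With total counts alone as the scaling 2 rose and 3 fell, where 24.5% of all genes were called, 1174 higher and 3111 lower. The median was then 0.12 for the lipase genes tested and -0.11 for all genes. Without HBR227 A, 5 rose and 3 fell of 9 tested, where 44.3% of all genes were called, 21.0% higher and 23.3% lower. These counts are a description of few genes and carry no test of the group.

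**Figure D1:**
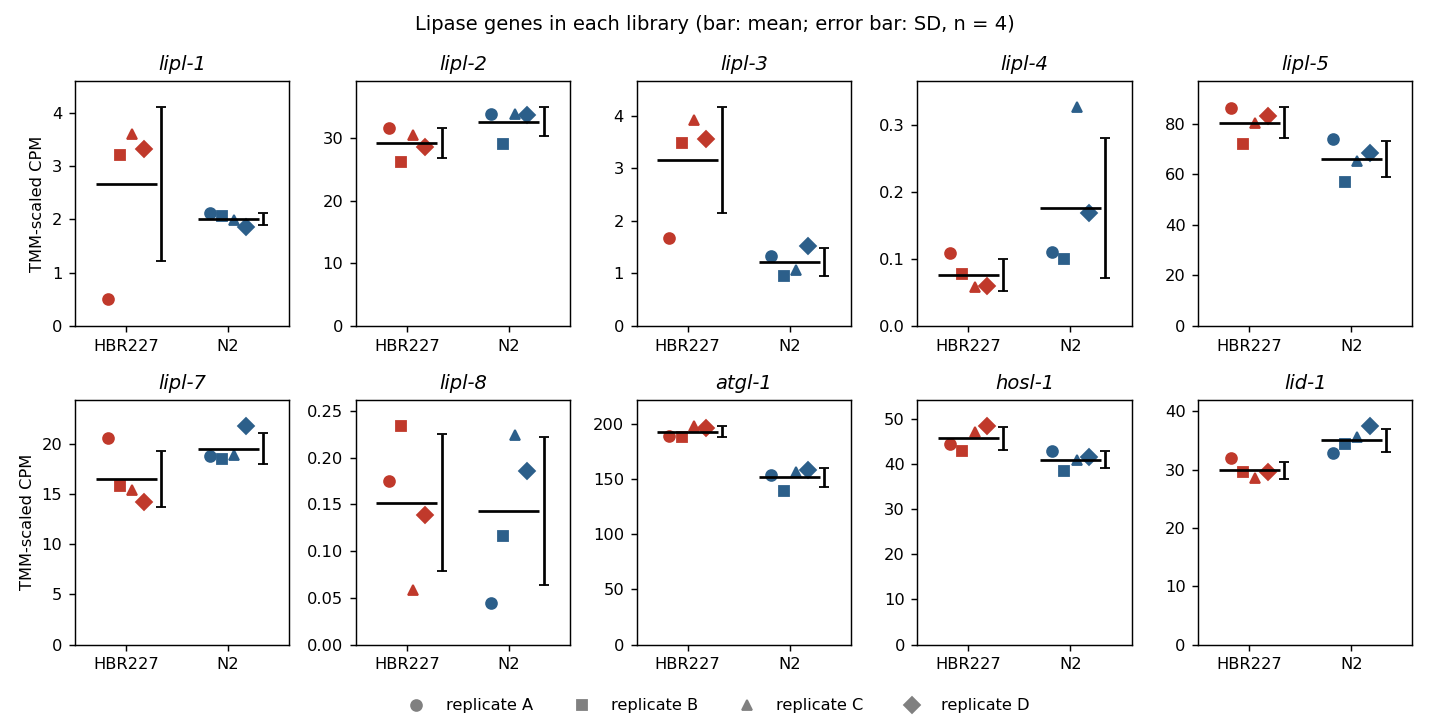
TMM-scaled CPM of each lipase gene (vertical axes, from 0) in the 4 HBR227 and 4 N2 libraries, with marker shapes for replicates, horizontal bars for means and error bars for SD. All 4 HBR227 points of atgl-1 lie above all N2 points, at 188 to 198 against 139 to 158 CPM, while HBR227 A of lipl-1 lies at 0.502 CPM, below every other point of that gene.

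At the fat droplet, the lipase and its co-activator moved in opposite directions. The triglyceride lipase gene atgl-1 (WBGene00015484, chromosome III, 6415772 to 6419459, minus strand, WBcel235; protein-coding) stood at 189, 188, 198 and 196 CPM in HBR227 A to D, against 153, 139, 156 and 158 CPM in N2 A to D. The strains did not overlap, and the 4 HBR227 libraries lay close together. Its mean was 193 ± 4.73 CPM in HBR227 and 151 ± 8.74 CPM in N2 (SD, n = 4 each), and the log2 fold change was 0.35 ± 0.052 (SE; edgeR adjusted p = 0.00172), or 1.27-fold. HBR227 A did not depart from the others here, and the log2 fold change without it was 0.36 ± 0.045.

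Transcripts of lid-1 (WBGene00007711, chromosome I, 10191273 to 10192832, minus strand), which encodes the co-activator of ATGL-1, were at 31.9, 29.5, 28.5 and 29.5 CPM in HBR227, against 32.8, 34.4, 35.5 and 37.5 CPM in N2. Every HBR227 value was below every N2 value, though HBR227 A and N2 A differed by little. The means of 29.9 ± 1.46 CPM in HBR227 and 35.1 ± 1.98 CPM in N2 (SD, n = 4 each) gave a log2 fold change of -0.23 ± 0.066 (SE; edgeR adjusted p = 0.0331), a level 1.17-fold lower. This call was near the threshold: leaving out any of HBR227 B, C or D or N2 B, C or D ended it, with adjusted p up to 0.1, as did testing without a low-count filter (adjusted p = 0.0761), and without HBR227 A it was firmer at -0.26 ± 0.052 (adjusted p = 5.9e-04).

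Other genes of the same family, abhd-5.1 and abhd-5.2, chosen after their values were seen, both rose. Levels of abhd-5.1 averaged 19.9 CPM in HBR227 and 15.8 CPM in N2, with a log2 fold change of 0.33 ± 0.075 (edgeR adjusted p = 0.0118). The gene abhd-5.2 averaged 54.8 ± 0.472 CPM in HBR227 and 47.3 ± 2.86 CPM in N2 (SD, n = 4 each), and the log2 fold change was 0.21 ± 0.057 (edgeR adjusted p = 0.0258). These genes and lid-1 are related to the mammalian ATGL co-activator CGI-58 (ABHD5), and their strain differences ran opposite to that of lid-1.

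For hosl-1 (WBGene00016704, chromosome X, 4637121 to 4643695, plus strand), the hormone-sensitive lipase gene, the values were 44.4, 42.8, 47.1 and 48.4 CPM in HBR227, against 42.8, 38.3, 40.9 and 41.5 CPM in N2. The lowest HBR227 library and the highest N2 library met at the same rounded value. The means were 45.7 ± 2.56 CPM in HBR227 and 40.9 ± 1.9 CPM in N2 (SD, n = 4 each). With a log2 fold change of 0.16 (95% interval 0.021 to 0.30) and an edgeR adjusted p of 0.0952, hosl-1 was not called. Of 16 alternatives, 1 called it, the fit without HBR227 A (0.18 ± 0.052, edgeR adjusted p = 0.011). With total counts alone its log2 fold change was 0.056 (edgeR adjusted p = 0.518).

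Among the lysosomal lipases, lipl-3 showed the largest strain difference of the 8 genes tested. In HBR227 lipl-3 (WBGene00020016, chromosome V, 521595 to 524218, minus strand), a gene induced by HLH-30 in fasted worms, had 77, 223, 200 and 179 counts, or 1.68, 3.48, 3.91 and 3.56 CPM. In N2 it had 60, 57, 52 and 82 counts, or 1.34, 0.947, 1.06 and 1.53 CPM. The strains did not overlap, but HBR227 A lay just above N2 D and well below the other HBR227 libraries. Its mean was 3.16 ± 1 CPM in HBR227 and 1.22 ± 0.264 CPM in N2 (SD, n = 4 each), 2.6-fold, with a log2 fold change of 1.38 ± 0.27 (SE; edgeR adjusted p = 0.00569). Without HBR227 A the log2 fold change was 1.59 ± 0.16 (adjusted p = 5.9e-07), and exons of srw-107 on the same strand overlap 1.6% of the lipl-3 exon length.

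The gene lipl-1 (WBGene00010062, chromosome V, 12919986 to 12921692, plus strand), which HLH-30 and MXL-3 control together with lipl-3, split the HBR227 libraries. It had 23, 205, 184 and 167 counts in HBR227, or 0.502, 3.2, 3.59 and 3.32 CPM, against 95, 124, 97 and 99 counts in N2, or 2.12, 2.06, 1.98 and 1.85 CPM. HBR227 B, C and D all lay above every N2 library, and HBR227 A lay below every N2 library. Over all 8 libraries the log2 fold change was 0.42 (95% interval -0.63 to 1.47) and the edgeR adjusted p was 0.564. Without HBR227 A it was 0.75 ± 0.12 (adjusted p = 1.0e-04). Relative to the N2 mean, HBR227 A was at a log2 ratio of -1.99 for lipl-1 and 0.46 for lipl-3, while HBR227 B, C and D were at 0.68 to 0.85 for lipl-1 and 1.52 to 1.68 for lipl-3.

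**Figure D2:**
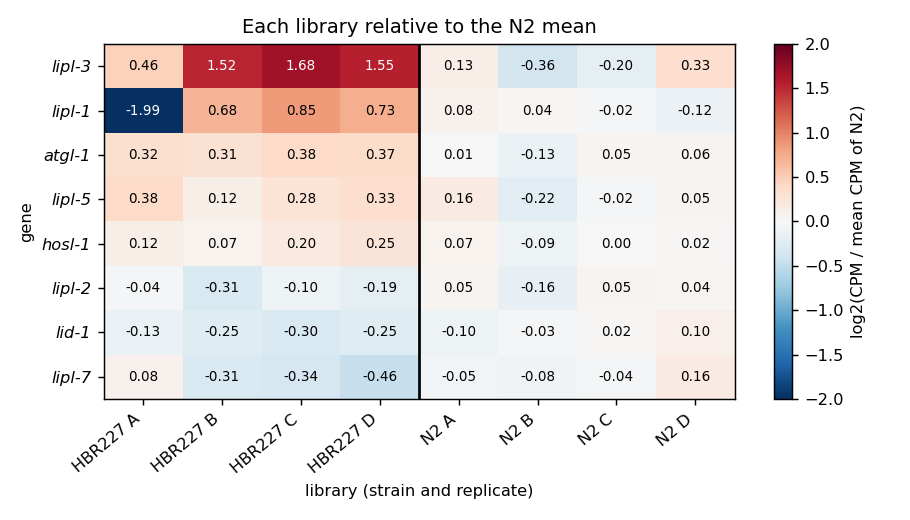
Log2 ratio of each library's CPM to the N2 mean (colour and printed value) for the 8 lipase genes tested (rows), in HBR227 A to D and N2 A to D (columns). HBR227 A departs from the other HBR227 libraries at lipl-1 (-1.99 against 0.68 to 0.85) and lipl-3 (0.46 against 1.52 to 1.68), and is close to them at atgl-1 (0.32 against 0.31 to 0.38).

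The fasting-responsive lipase gene lipl-5 (WBGene00022642, chromosome V, 385746 to 387740, plus strand) was the most abundant of the family. It stood at 86.1, 72.1, 80.5 and 83.2 CPM in HBR227, against 73.9, 56.9, 65.4 and 68.4 CPM in N2. The groups overlapped, since HBR227 B was below N2 A. The means of 80.5 ± 6.03 CPM in HBR227 and 66.2 ± 7.11 CPM in N2 (SD, n = 4 each) gave a log2 fold change of 0.28 ± 0.085 (SE; edgeR adjusted p = 0.0414), or 1.22-fold. The call was lost without any of HBR227 C or D or N2 B, C or D, where adjusted p was up to 0.0987, and with total counts as the only scaling (log2 fold change 0.18, adjusted p = 0.114). The genes lipl-5 and lipl-3 lie on the same chromosome with 134 kb and 41 protein-coding genes between them.

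Of the rest of the family, lipl-2 and lipl-7 were lower on average in HBR227 without being called. The gene lipl-2 (WBGene00009773, chromosome V, 9791567 to 9793241, plus strand) was at 31.6, 26.2, 30.5 and 28.5 CPM in HBR227, against 33.8, 29.1, 33.8 and 33.6 CPM in N2. Overlap came from N2 B, which was low. The log2 fold change was -0.16 (95% interval -0.34 to 0.022; edgeR adjusted p = 0.191), and -0.20 ± 0.064 without HBR227 A (adjusted p = 0.0189).

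The gene lipl-7 (WBGene00008510, chromosome IV, 10239278 to 10241823, minus strand) was at 20.6, 15.8, 15.4 and 14.2 CPM in HBR227, against 18.8, 18.5, 18.9 and 21.8 CPM in N2. HBR227 B, C and D were below all N2 libraries and HBR227 A was above 3 of the 4. The log2 fold change was -0.24 (95% interval -0.51 to 0.021; edgeR adjusted p = 0.173), and -0.36 ± 0.070 without HBR227 A (adjusted p = 4.8e-04). Scaled by total counts alone, both genes were called lower in HBR227, at -0.26 for lipl-2 (adjusted p = 0.0222) and -0.35 for lipl-7 (adjusted p = 0.0478), where the median of all genes shifted to -0.11.

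The longevity-linked lipase gene lipl-4 (WBGene00019376, chromosome V, 6550171 to 6552186, plus strand) was almost silent at this stage. It had 5, 5, 3 and 3 counts in HBR227, against 5, 6, 16 and 9 counts in N2. These counts of 16 in all for HBR227 and 36 for N2 were too few for the test. Its partner in the lysosome-to-nucleus signal, lbp-8, named after its value was seen, was also too low to test, at 0.0937 to 0.418 CPM in HBR227 and 0.134 to 0.205 CPM in N2. Exons of K04A8.15 and of an unnamed gene on the opposite strand overlap 12.2% of the lipl-4 exon length, so even these few reads cannot be assigned with certainty.

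Counts of lipl-8 (WBGene00013050, chromosome V, 14745684 to 14748708, minus strand) were 8, 15, 3 and 7 in HBR227, against 2, 7, 11 and 10 in N2. The ranges overlapped almost fully. With every expressed gene tested, whatever its count, lipl-4 had a log2 fold change of -1.17 ± 0.56 (edgeR adjusted p = 0.216) and lipl-8 of 0.11 ± 0.55 (adjusted p = 0.93), so no strain difference was detectable at this depth.

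Per kb of exon, a scale on which genes can be compared with each other, the 10 transcripts spanned a wide range. In HBR227, atgl-1 led at 73 ± 1.79 CPM per kb, followed by lipl-5 at 63.8 ± 4.78, lipl-2 at 22.9 ± 1.86 and lid-1 at 22.6 ± 1.1. Then came hosl-1 at 13.3 ± 0.746, lipl-7 with a range of 11 to 15.9, lipl-3 at 2.2 ± 0.697 and lipl-1 at 1.99 ± 1.08 CPM per kb (SD, n = 4 each). The last were lipl-8 at 0.125 ± 0.0607 and lipl-4 at 0.0462 ± 0.0143 CPM per kb. Ranges of neighbours overlapped between lipl-2 and lid-1, hosl-1 and lipl-7, lipl-3 and lipl-1, and lipl-8 and lipl-4, and not between the other neighbours in that order.

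In N2 the order was atgl-1 at 57.3 ± 3.31, lipl-5 at 52.4 ± 5.63, lid-1 at 26.5 ± 1.49, lipl-2 at 25.5 ± 1.8, lipl-7 at 15 ± 1.19 and hosl-1 at 11.9 ± 0.551 CPM per kb. At the low end stood lipl-1 at 1.5 ± 0.0883, lipl-3 at 0.848 ± 0.184, lipl-8 at 0.118 ± 0.0657 and lipl-4 at 0.107 ± 0.0632 CPM per kb (SD, n = 4 each). Overlapping neighbours were atgl-1 and lipl-5, lid-1 and lipl-2, and lipl-8 and lipl-4. The orders of the strains thus differed at neighbouring places: in HBR227 the means of lipl-2, hosl-1 and lipl-3 passed those of lid-1, lipl-7 and lipl-1, and these pairs overlapped in HBR227.

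Of the summed level per kb of the 10 genes, atgl-1 made up 34.4% in HBR227 and 30% in N2, and lipl-5 made up 30% in HBR227 and 27.4% in N2. The shares of lid-1 were 10.6% in HBR227 and 13.9% in N2. The fasting-induced lipl-3 with its large fold change made up only 1.04% in HBR227 and 0.441% in N2.

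**Figure D3:**
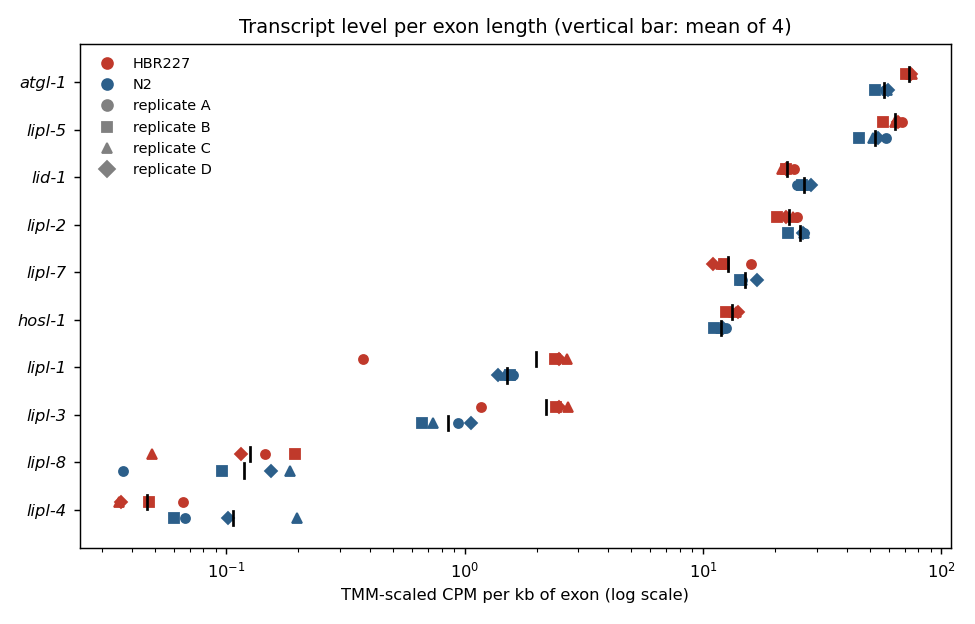
TMM-scaled CPM per kb of exon (horizontal axis, log scale) of the 10 lipase genes in each HBR227 library and each N2 library, with marker shapes for replicates and vertical bars for means. atgl-1 and lipl-5 lie highest, at means of 73 and 63.8 in HBR227 and 57.3 and 52.4 in N2, and lipl-4 lowest, at 0.0462 in HBR227 and 0.107 in N2.

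In 3 of the 8 genes tested, lipl-3, atgl-1 and hosl-1, all HBR227 values lay above all N2 values, and in lid-1 all lay below. Over all genes tested, 28.9% separated the strains fully. By annotation 6 of the 7 lipl genes lie on chromosome V and lipl-7 on chromosome IV, and all 10 genes are protein-coding.

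Among known regulators of lysosomal lipases and fat mobilisation, some rose. Of 23 such genes tested, 8 rose, 0 fell and 15 were not called, where 11.2% of all genes were higher and 10.4% lower. Their median log2 fold change was 0.15. With total counts alone 5 rose and the median was 0.046, where 1174 of all genes were higher and 3111 lower. In edgeR 0 were lower even at an unadjusted p under 0.05, and 0 were lower with DESeq2 and with limma voom. Without HBR227 A, 14 of 23 rose and 0 fell, where 21.0% of all genes were higher. Without HBR227 D 5 were called, where 14.1% of all genes were called. The FOXO factor gene daf-16 rose to 333 ± 19.2 CPM in HBR227, against 233 ± 11.4 CPM in N2 (SD, n = 4 each; log2 fold change 0.51 ± 0.057, edgeR adjusted p = 4.0e-04). The AMP-activated kinase genes aak-1 and aak-2, of which AAK-2 is known to phosphorylate ATGL-1, rose by 0.70 ± 0.080 and 0.33 ± 0.041 on the log2 scale. The Mediator subunit gene mdt-15, a co-activator of fat metabolism genes, rose by 0.52 ± 0.059.

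The direct regulators of lipl-1 and lipl-3, named after their values were seen, were not called over all libraries. The activator hlh-30 stood at 507, 523, 568 and 559 CPM in HBR227, against 492, 468, 492 and 495 CPM in N2, with no overlap (log2 fold change 0.15 ± 0.050, edgeR adjusted p = 0.064), and leaving out HBR227 A made it a rise (0.18 ± 0.040, adjusted p = 0.00187). The repressor mxl-3 stood at 66, 181, 209 and 204 CPM in HBR227, against 108, 91.6, 106 and 112 CPM in N2. As with lipl-1, HBR227 A was below every N2 library and HBR227 B, C and D were above every N2 library. The log2 fold change of mxl-3 was 0.66 ± 0.33 (adjusted p = 0.199) over all libraries and 0.93 ± 0.065 without HBR227 A (adjusted p = 2.1e-07). The nuclear receptor genes nhr-49 (0.33 ± 0.052) and nhr-80 (0.28 ± 0.074), also named after their values were seen, both rose.

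Genes of the fat droplet coat and of triglyceride storage went both ways. Of 18 tested, 4 rose, 2 fell and 12 were not called, where 21.5% of all genes were called, with a median of -0.04. With total counts alone 2 rose and 6 fell, where 1174 of all genes were higher and 3111 lower. Without HBR227 A, 8 rose and 5 fell, where 44.3% of all genes were called. Without HBR227 D or N2 B 3 were called, where 14.1% and 13.7% of all genes were called. The lipin gene lpin-1, which makes the diacylglycerol from which triglyceride is formed, rose to 782 ± 33.1 CPM in HBR227, against 528 ± 28.8 CPM in N2 (SD, n = 4 each; log2 fold change 0.56 ± 0.054, edgeR adjusted p = 2.0e-04). The acyl-CoA synthetase gene acs-4 (F37C12.7) rose by 0.35 ± 0.054 and stdh-1 by 0.33 ± 0.088. The phosphatidylcholine synthesis gene pcyt-1 fell, with a log2 fold change of -0.36 ± 0.077. The perilipin gene plin-1, named after its value was seen, was not called (-0.16 ± 0.062, adjusted p = 0.103).

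Among other genes with lipase names, those called over all 8 libraries all fell. Of 15 tested from the lips and fil genes with lipl-6, 0 rose, 4 fell and 11 were not called (median -0.16). Calls made up 26.7% of these, where 21.5% of all genes were called and 10.4% were lower. With total counts alone 0 rose and 5 fell, where 1174 of all genes were higher and 3111 lower. Without HBR227 A 3 rose and 8 fell of 16, where 44.3% of all genes were called and 23.3% were lower. Without N2 B 0 were called, without HBR227 C or N2 A 1, and without HBR227 D, N2 C or N2 D 2. In these fits 13.6% to 15.9% of all genes were called. At an unadjusted p under 0.05 in edgeR 1 was higher and 6 were lower. DESeq2 called 0 higher and 6 lower, and limma voom 0 higher and 3 lower, where they called 23.8% and 22.2% of all genes. The falls were lips-6 (-1.37 ± 0.33), lips-3 (-0.58 ± 0.16), lips-13 (-0.97 ± 0.30) and lips-16 (-0.92 ± 0.29). Of these, lips-3 had 6.28 ± 1.44 CPM in HBR227 and 9.43 ± 0.962 CPM in N2 (SD, n = 4 each), and the other 3 averaged below 2 CPM in each strain. The remaining member of the lipl family by name, lipl-6, chosen after its value was seen, had 2.12 ± 0.149 CPM in HBR227 and 2.85 ± 0.541 CPM in N2 and was not called (-0.42 ± 0.16, edgeR adjusted p = 0.0816). Without HBR227 A it was called lower (-0.42 ± 0.16, adjusted p = 0.0368).

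Of 8 lbp genes tested, which encode fatty acid binding proteins, 0 rose, 3 fell and 5 were not called (median -0.24), where 10.4% of all genes were lower. Without HBR227 A 1 rose and 5 fell, where 23.3% of all genes were lower. With total counts alone 0 rose and 5 fell, where 1174 of all genes were higher and 3111 lower. At an unadjusted p under 0.05 in edgeR 0 were higher, as with DESeq2 and limma voom. The falls were lbp-1 (-0.43 ± 0.094), lbp-3 (-0.35 ± 0.062) and lbp-6 (-0.32 ± 0.068). For lbp-3 the levels were 30.4 ± 1.59 CPM in HBR227 and 38.9 ± 1.49 CPM in N2 (SD, n = 4 each; edgeR adjusted p = 0.00367).

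Among 31 genes of the lysosomal membrane and of lysosomal cholesterol and sphingolipid handling, 11 rose, 3 fell and 17 were not called (median 0.17). Of all genes tested 21.5% were called, 11.2% higher and 10.4% lower. Under total counts alone 4 rose and 5 fell, where 24.5% of all genes were called, 1174 higher and 3111 lower. Without HBR227 A 14 rose and 6 fell, where 44.3% of all genes were called, 21.0% higher and 23.3% lower. Leaving out any of the other 7 libraries lowered the 14 calls to between 6 (without HBR227 C, N2 B or N2 C) and 8. The share of all genes called also fell in those fits, from 21.5% to between 13.6% and 18%. The cholesterol transporter gene ncr-2, a homologue of human NPC1, rose to 35.1 ± 1.81 CPM in HBR227, against 20.9 ± 2.07 CPM in N2 (SD, n = 4 each; log2 fold change 0.75 ± 0.083, edgeR adjusted p = 4.0e-04). The cystine exporter gene ctns-1 rose by 0.53 ± 0.077 and the acid sphingomyelinase gene asm-1 by 0.45 ± 0.067. The galactosidase gene gana-1 fell, with a log2 fold change of -0.35 ± 0.070. Of the 6 yolk protein genes, another lipid store in adults, vit-6 rose (0.96 ± 0.21) and the other 5 were not called. That made 16.7% called, below the 21.5% of all genes. Levels were low: vit-6 averaged 2.64 ± 0.488 CPM in HBR227 and 1.36 ± 0.315 CPM in N2 (SD, n = 4 each). Strain means of the 6 genes lay between 0.44 and 3.17 CPM.

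The 14 intestine markers did not move together: ges-1 (0.44 ± 0.10) and ifo-1 (0.53 ± 0.13) rose, asp-1 (-0.54 ± 0.064) and end-3 (-1.07 ± 0.22) fell, and 10 were not called, where 21.5% of all genes were called. Their median was 0.03, and with total counts alone it was -0.074. Without HBR227 A, 7 rose and 4 fell, where 44.3% of all genes were called. Without N2 B 2 were called, where 13.7% of all genes were called. The level of end-3 was low, at 0.745 ± 0.194 CPM in HBR227 and 1.55 ± 0.233 CPM in N2 (SD, n = 4 each). That of asp-1 averaged 2200 CPM in HBR227 and 3210 CPM in N2.

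**Figure D4:**
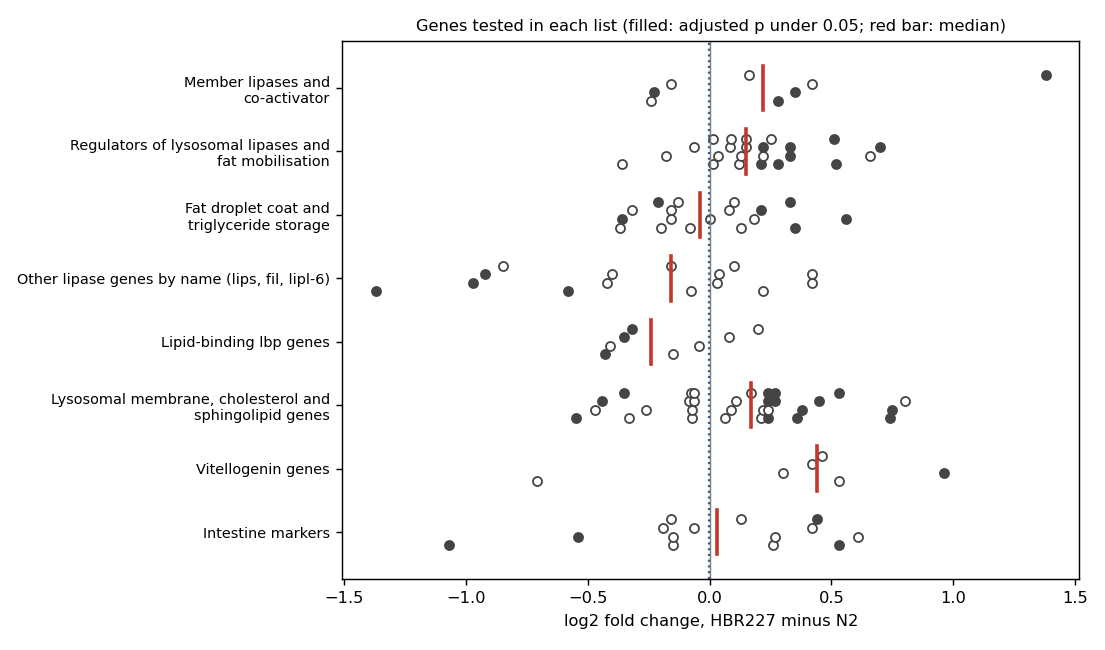
Log2 fold change, HBR227 minus N2 (horizontal axis), of each gene tested in 8 lists (rows), filled where the adjusted p was under 0.05, with red bars for list medians and a dotted line for the median of all genes tested at -0.0032. The median of the regulators lies at 0.15 and that of the lbp genes at -0.24, and each list holds genes that were not called.

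Over the 8 libraries, the genes whose log2 CPM was most like that of lipl-3, the called gene with the largest log2 fold change, were C31C9.7 (Pearson r = 0.992), Y41D4A.7 (0.992), pnk-1 (0.991), T12A7.6 (0.990) and tat-2 (0.990). The points share their libraries and the strain difference. All 5 were higher in HBR227, which follows from choosing them by likeness to lipl-3. Their log2 fold changes lay between 0.22 ± 0.056 for pnk-1, a pantothenate kinase gene, and 0.65 ± 0.14 for C31C9.7.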

How the data were processed

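The authors deposited unscaled raw counts, gene by gene, of all 8 libraries. The submitters' processing notes name Bowtie 0.12.2 and 2 builds, WBcel235 (worm) and mm8, with no role for any. Which program and annotation produced the counts, and whether strand was used, is not given in the sources used here, so reads of overlapping genes, or of near-identical copies, cannot be told apart.

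The 11 rows whose names had become dates (0.0333% of counts) were left out. The test ran under R 4.3.3 in edgeR 4.0.16: TMM scaling, filterByExpr with a minimum count of 10, robust quasi-likelihood F test of HBR227 against N2 over all 8 libraries without covariates, Benjamini-Hochberg adjustment over 17522 genes. The SE is the absolute log2 fold change over the square root of F. CPM per kb used the exon length of Ensembl release 115 (WBcel235, 1-based coordinates). The common coefficient of biological variation came to 0.152. The scripts were tested on simulated counts.

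Members and lists were chosen with earlier results of these data known. Named are the members, aptf-1, up to 4 called genes with the smallest p per list and the 5 genes most like the called member of largest fold change; others are stated as chosen after their values were seen. Alternatives were DESeq2 1.42.0 size factors, upper quartile scaling, total counts alone, limma 3.58.1 voom, DESeq2, no filter, a CPM of at least 1 in 4 libraries, a replicate block, an adjusted p under 0.01, and each library left out. Figures used Python 3.11.15 with matplotlib 3.10.9.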

Additional observations from a re-analysis of the deposited data

Results flagged for a closer look

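In 3 cases a library lay far from the other 3 of its strain, with a gap to the nearest of them above Dixon's critical value for a group of 4. The lipl-1 level of HBR227 A was 0.502 CPM, against 3.2 to 3.59 CPM in HBR227 B, C and D (gap 0.873 of the group's range). The lipl-2 level of N2 B was 29.1 CPM, below 33.6 to 33.8 CPM in the other N2 libraries (gap 0.958). The lipl-7 level of N2 D was 21.8 CPM, above 18.5 to 18.9 CPM in the other N2 libraries (gap 0.872). Chance alone flags about 1 in 20 groups, and 20 groups were examined. HBR227 A also stood apart from the other libraries over all genes. The cause of these flags was not tested.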

How the results depend on the processing

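The 8 lipase genes tested kept their direction in all 16 alternatives with a fitted value, and lipl-3 (log2 fold change 1.26 to 1.59) and atgl-1 (0.24 to 0.38) stayed called in each. The call of lipl-5 held in 10 and that of lid-1 in 8 of 16. With libraries left out in turn, genes called ranged from 2423 (without HBR227 C) to 7906 (without HBR227 A), against 3774, with 2430 without N2 B and 2510 without HBR227 D. Lipase genes called ranged from 2 to 8, against 4, and listed genes called from 23 to 85, against 44. At an adjusted p under 0.01, 1722 genes and 2 lipase genes were called. Total counts alone shifted the median of all genes to -0.11 and the share of calls that were higher in HBR227 to 27.4%, from 1174 higher and 3111 lower. The replicate letters are shared by the strains, and no pairing is stated. Correlations of deviations from the strain means between same-lettered libraries were -0.0141, 0.142, 0.0341 and -0.0144 for A to D. The value for B was the highest of all pairs, and HBR227 A correlated best with N2 D. So few values cannot decide whether same-lettered libraries shared a culture or batch. With the replicate block, 17.5% of all genes were called, 1639 higher and 1426 lower, and lid-1 was not called (edgeR adjusted p = 0.0842). Calls then fell to 2 among the other lipase names and to 8 among the lysosomal genes. Counts of lipl-4 and lipl-8 were too low to limit their fold changes, and the cause of the departure of HBR227 A was not tested.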

Other observations

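Some other lipid genes, chosen after their values were seen, split the HBR227 libraries as lipl-1 and mxl-3 did. The lipase-like gene lips-10 stood at 27.2 CPM in HBR227 A and 86.1 to 87 CPM in HBR227 B, C and D, against 52.8 to 54.9 CPM in N2. The glucosylceramidase-like gene gba-2 stood at 0.436 CPM in HBR227 A and 11.7 to 13 CPM in HBR227 B, C and D, against 4.85 to 6.13 CPM in N2. The sphingomyelinase gene asm-3 stood at 7.64 CPM in HBR227 A and 18.9 to 21.9 CPM in HBR227 B, C and D, against 12.1 to 16.2 CPM in N2. In each, HBR227 A was below every N2 library and the other HBR227 libraries were above, and none was called over all 8 libraries. The gene lips-15 went the other way, at 11.7 CPM in HBR227 A and 3.03 to 4.38 CPM in HBR227 B, C and D, against 5.2 to 5.73 CPM in N2.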
